A study of Saccharomyces cerevisiae with 13 samples.

Results

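The models described here are the subtelomeric transcript models of *S. cerevisiae*, the genes nearest to the ends of the chromosomes. A nuclear model was taken as subtelomeric when it started within the first 40 kb of its chromosome or ended within 40 kb of the last model of that chromosome. This holds for 319 of 4280 models, 136 on left arms and 183 on right arms. The other 3959 nuclear models are the comparison, and 2 mitochondrial models were left out. The strain was BY4742, a laboratory haploid of mating type α, in YPD medium. Cultures were either in log growth at 30° or had spent a further 20 min at 39° (heat shock, HS). Nascent RNA labelled with biotin in a nuclear run-on (NRO) and total RNA were sequenced in a strand-specific way. The 3 libraries of each group were merged by the authors, so that each model has 1 pooled value for log growth (NRO and total RNA) and 1 for heat shock, written NRO (HS) and total RNA (HS). There is no replicate spread, no test across cultures was possible, and the intervals below cover counting error only.

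Yeast chromosome ends carry telomeric repeats bound by Rap1, which recruits the Sir2, Sir3 and Sir4 proteins. Sir2 removes acetyl groups from histones, and Sir3 and Sir4 bind the deacetylated nucleosomes and spread inward, which silences genes near some ends. The same proteins silence the spare mating-type cassettes *HML* and *HMR*. Farther in, the deacetylase Hda1 and the Tup1 corepressor keep many genes low in rich medium. Subtelomeres hold families of near-identical genes for sugar use, metal uptake, flocculation and phosphate uptake, and many of these are switched on only by starvation or stress. In heat shock, Hsf1 acts through repeats of GAA and its complement, and Msn2 and Msn4 act through the stress response element AGGGG.

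Promoter windows of 5 members are shown, picked by their heat shock values, so they do not represent the members that rose. The other members that rose in both kinds of library, *GDB1*, *GUD1*, *PRB1* and *SRL3*, are not shown. *BDH2*, *ALD4* and *MSC1* were the members with the largest rises in both kinds of library, *HSP31* was the chaperone gene with the largest rise below the read limit, and *URA1* was the member with the lowest total RNA ratio among those called lower in both. Each window is the RefSeq R64 sequence from 300 to 51 bases before the annotated gene start, 5′ to 3′ on the gene's strand. Capitals mark AGGGG or its complement CCCCT.
BDH2 (R64 chrI:33148-33397, + strand): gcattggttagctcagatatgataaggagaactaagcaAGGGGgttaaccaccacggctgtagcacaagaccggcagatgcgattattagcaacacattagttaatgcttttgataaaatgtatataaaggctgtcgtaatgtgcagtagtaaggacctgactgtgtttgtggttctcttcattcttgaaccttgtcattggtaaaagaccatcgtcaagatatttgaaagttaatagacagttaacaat
ALD4 (R64 chrXV:1039540-1039789, + strand): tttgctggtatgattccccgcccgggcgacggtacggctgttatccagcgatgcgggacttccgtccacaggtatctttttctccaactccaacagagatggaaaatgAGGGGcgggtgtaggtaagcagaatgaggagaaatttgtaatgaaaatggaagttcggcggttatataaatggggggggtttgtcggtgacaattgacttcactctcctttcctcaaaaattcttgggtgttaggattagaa
MSC1 (R64 chrXIII:16727-16976, - strand): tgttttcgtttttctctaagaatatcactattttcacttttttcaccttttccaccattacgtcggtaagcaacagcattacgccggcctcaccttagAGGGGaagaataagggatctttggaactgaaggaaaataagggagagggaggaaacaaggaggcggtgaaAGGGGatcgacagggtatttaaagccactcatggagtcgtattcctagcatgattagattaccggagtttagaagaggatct
HSP31 (R64 chrIV:1502211-1502460, - strand): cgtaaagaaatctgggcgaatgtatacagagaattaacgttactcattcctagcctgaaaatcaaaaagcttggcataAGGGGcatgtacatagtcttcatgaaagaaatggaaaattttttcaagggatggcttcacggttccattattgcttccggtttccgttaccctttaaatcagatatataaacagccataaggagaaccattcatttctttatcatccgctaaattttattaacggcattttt
URA1 (R64 chrXI:24915-25164, + strand): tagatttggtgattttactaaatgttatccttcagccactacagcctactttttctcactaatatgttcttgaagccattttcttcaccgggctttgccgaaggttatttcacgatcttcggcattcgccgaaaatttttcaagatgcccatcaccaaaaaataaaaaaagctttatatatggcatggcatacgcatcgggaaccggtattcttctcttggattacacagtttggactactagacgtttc
The *MSC1* window holds the motif 2 times, starting 202 and 132 bases before the gene. The *BDH2*, *ALD4* and *HSP31* windows hold it 1 time each, starting 262, 192 and 222 bases before the gene, and the *URA1* window does not hold it. Among 6412 R64 gene windows of the same length, 18.8% hold AGGGG on either strand, against 22.4% of the 317 members found in R64. It is present in 8 of the 15 members that rose at least 2-fold in total RNA (53.3%), against 53.4% of all 191 nuclear models that did so. The heat shock element, searched on both strands as a triplet of GAA units in alternating orientation with a pair of free bases between them, is present in 0.811% of R64 windows and in 1 member window. These matches are letters in a window and no evidence of binding.

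Each value below is a read density, that is the average depth of a model over those of its exonic bases that are mappable, leaving out the 200 bases after the transcription start, divided by the size of the library in sequenced bases. The 4 pooled libraries held an estimated 2491144 reads in NRO, 894262 in total RNA, 378273 in NRO (HS) and 656630 in total RNA (HS). The median member held 57 NRO reads, 16 total RNA reads, 7.42 NRO (HS) reads and 10 total RNA (HS) reads. A value of 0 in these data is not a safe sign of silence. In NRO, 695 models are listed at 0 but only 51 hold about 1 read, and the ribosomal gene *RPL26A* and the ribosome assembly gene *RLP24* have no NRO value above 0 but 19 and 37 reads in total RNA. Models at 0 are therefore called listed at 0 and no fold is given for them.

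Subtelomeric models were read at somewhat lower levels than the rest. Their median density was 0.0157 in NRO against 0.0221 for the other nuclear models, and 0.0123 against 0.0197 in total RNA. After heat shock the medians were 0.0132 against 0.0163 in NRO (HS) and 0.0103 against 0.0133 in total RNA (HS). In NRO, 57.4% of the members lay below the median of all nuclear models, and in total RNA 56.4% did. The upper end was not thinned out, since 32 members (10.03%) were in the top 10% of NRO densities and 34 (10.7%) in the top 10% of total RNA.

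The share listed at 0 differed little. In NRO, 61 members (19.1%) were at 0 against 16.0% of the others, and in total RNA 43 (13.5%) against 14.1%. In NRO (HS), which was the shallowest library, 100 members (31.3%) were at 0 against 30.8%, and in total RNA (HS) 71 (22.3%) against 19.5%. A total of 26 members (8.15%) were at 0 in all 4 libraries, against 7.35% of the others, and 204 (63.9%) were above 0 in all 4, against 65.1%. Among the members above 0 in 1 log growth library only, 11 were read only in NRO (3.45%, others 4.40%) and 29 only in total RNA (9.09%, others 6.31%).

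The models were alike in length and mappability. The median region was 1240 bases in the members and 1236 in the others, and the mean share of mappable bases was 99.0% against 99.5%. Under 90% of the bases were mappable in 9 members (2.82%) and in 1.19% of the others. The authors used genes with a mapped start and end of transcription and no same-strand overlap, and kept uniquely mapped reads. Of 147 genes on the family lists, 37 have a model and 27 of these are members. R64 holds 540 genes within 40 kb of a chromosome end, so that many genes of these regions have no model here. Which of these steps left them out was not tested.

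Density fell off steeply toward the ends. Of the 53 models within 10 kb, the median NRO density was 0.00237, and it was 0.0155 from 10 to 20 kb (n = 71), 0.0202 from 20 to 30 kb (n = 90) and 0.0191 from 30 to 40 kb (n = 105). Between 40 and 100 kb the median was 0.0320 (n = 699), and beyond 100 kb it was 0.0202 (n = 3260). Total RNA followed the same course, with 0.00347 in the first 10 kb, 0.0101, 0.0226 and 0.0184 in the next bins and 0.0280 between 40 and 100 kb. In the first 10 kb, 35.8% of the models were at 0 in NRO, 30.2% in total RNA, 47.2% in NRO (HS) and 41.5% in total RNA (HS), more than in any of the other 5 bins in each library. The NRO medians from 20 to 40 kb were near the 0.0221 of the other nuclear models. Of these 53 models, 6 had under 90% mappable bases, and without them the median NRO density was 0.00285. With left arms also counted from their first model, 112 models lie within 10 kb, and their median NRO density was 0.00924.

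The distance on the right arms is counted from the last model and not from the telomere, and 49 of the 53 models within 10 kb lie on right arms. Positions in R64 were therefore used as a second scale, on which 253 of 317 members lie within 40 kb of an end and 64 lie beyond it, the farthest at 57.4 kb. On this scale the NRO medians were 0.00664 within 10 kb (n = 13), 0.00720 from 10 to 20 kb (n = 55), 0.0109 from 20 to 30 kb (n = 85), 0.0187 from 30 to 40 kb (n = 100) and 0.0310 from 40 to 100 kb (n = 698). Total RNA gave 0.00672, 0.00696, 0.00990, 0.0182 and 0.0286. Both kinds of library were thus lower in the bins within 30 kb of an end than between 40 and 100 kb on either scale. Beyond 100 kb the NRO and total RNA medians were 0.0202 and 0.0180 by the rule, and 0.0205 and 0.0182 in R64. Against these, both were lower within 20 kb on either scale, and from 20 to 30 kb clearly lower only in R64. The value of the first 10 kb itself rests on 13 models in R64.

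**Figure D1:**
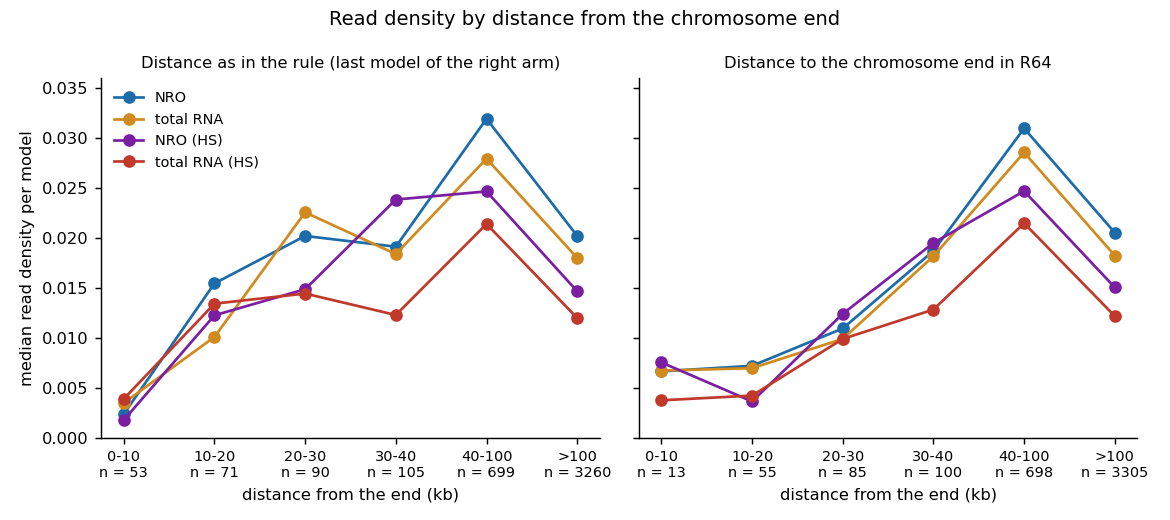
Median read density per model (y axis, linear, starting at 0) against distance from the chromosome end in kb (x axis, bins with the number of models) in the 4 pooled libraries; lines join the medians and there are no error bars because each group has 1 pooled value. On the left, distance follows the rule, and on the right it is the distance in R64. In NRO the median rises from 0.00237 within 10 kb to 0.0320 between 40 and 100 kb on the left, and from 0.00664 to 0.0310 on the right. Beyond 100 kb it is 0.0202 on the left and 0.0205 on the right.

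Orientation went with some difference in the medians. The 167 members transcribed toward the end had a median NRO density of 0.0173 and a total RNA density of 0.0151, and the 152 transcribed toward the centromere had 0.0127 and 0.0106. The share at 0 in NRO was 19.8% and 18.4%. The medians of single ends ranged widely. Each rests on at most 17 members, so this range cannot be set against the difference by orientation. Among the 29 chromosome ends with at least 5 members, the median NRO density ranged from 0.00135 on the left arm of chromosome XV, where 3 of 6 members were at 0, to 0.0806 on the right arm of chromosome XIII, where 1 of 15 was at 0.

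The member with the highest density was YDR524C-B, an uncharacterized small gene on the right arm of chromosome IV with a region of only 161 bases (sacCer2 chrIV:1489454-1489614, - strand). It ranked first of all 4280 models in 3 of the 4 libraries. Its density was 32.1 in NRO, 19.8 in total RNA, 34.4 in NRO (HS) and 12.8 in total RNA (HS), where it ranked 3. It alone held 11.9% of the estimated NRO reads of all members. The next member in NRO was *SCW4*, a cell wall protein of the glucanase family, at 2.37, 1.74, 1.13 and 0.942 in the 2 log growth libraries (NRO, total RNA) and the 2 heat shock libraries (NRO, total RNA). *BMH1*, a 14-3-3 protein, was at 1.11, 2.10, 1.08 and 2.46 in the same order. Ribosomal protein genes stood near the top, with *RPL2A* at 2.37 in total RNA and 0.570 in NRO, though 81.5% of its bases are mappable and it has a near-identical copy elsewhere.

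*EGT2*, a cell wall protein of the cell cycle, was at 0.986 in NRO and 0.216 in total RNA. *GAS1*, which elongates cell wall glucan, was at 0.751 and 0.455. *KRE1*, also of the cell wall, was at 0.591 and 0.875, and *DPM1*, which makes the mannose donor for glycosylation, at 0.698 and 0.739. *PHO84*, the high-affinity phosphate transporter, was at 0.619 and 0.362, and *PRB1*, the vacuolar protease B, at 0.773 and 0.229. The mitochondrial protein *MIC10* was at 0.819 and 0.614. *APE3*, a vacuolar aminopeptidase, *ABP1*, an actin-binding protein, *SBP1*, an RNA-binding protein, and *ZUO1*, a ribosome-bound chaperone, had total RNA densities of 0.758, 0.889, 1.26 and 0.751.

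In NRO, heat shock moved the subtelomeric models much as it moved the rest, with a larger share of falls in some settings. A ratio was read where at least 10 reads were expected in the shallower library at equal density, which 155 members and 2039 other models passed, and a change of 2-fold or more was called. Of the members, 17 rose (11.0%, background over all nuclear models 10.8%) and 39 fell (25.2%, background 24.6%). The median log2 change was -0.09 in the members and -0.24 in the others. With at least 10 reads asked for in both libraries, the medians were 0.12 and -0.0015. With this limit 24 members rose (17.1%, others 15.8%) and 20 fell (14.3%, others 14.0%). This limit leaves out models with few NRO (HS) reads and so removes falls by construction, in the members and the others alike. With at least 50 expected reads, 4 of 65 members rose (6.15%, others 7.45%) and 17 fell (26.2%, others 20.0%). The counting interval lay above 1 for 38 and below 1 for 60 of the 155 members. The median change by distance depended on the scale. By the rule, its log2 was -0.04 within 10 kb (n = 16), -0.65 from 10 to 20 kb (n = 37), -0.50 from 20 to 30 kb (n = 46) and 0.06 from 30 to 40 kb (n = 56). In these bins 6, 11, 15 and 7 models fell, and 1, 3, 6 and 7 rose. Between 40 and 100 kb the median was -0.17, and beyond 100 kb it was -0.25. In R64 it was -1.78 within 10 kb (n = 3), 0.04 from 10 to 20 kb (n = 22), -0.39 from 20 to 30 kb (n = 36) and -0.23 from 30 to 40 kb (n = 55). With left arms also counted from their first model, the medians of these bins were -0.16, -0.24, -0.06 and -0.12. With a 30 kb limit, 32.3% of 99 members fell and 10.1% rose, with a median of -0.48.

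The largest rises in NRO were those of *BDH2* and *ALD4*. *BDH2*, a putative dehydrogenase beside the butanediol dehydrogenase gene *BDH1*, went from 0.0255 in NRO to 0.229 in NRO (HS), a ratio of 8.97 (6.79 to 11.9). Its total RNA went from 0.0406 to 0.336, a ratio of 8.28 (6.16 to 11.3). *ALD4*, the mitochondrial aldehyde dehydrogenase, went from 0.0477 to 0.409 in NRO, 8.58-fold (7.10 to 10.4), and from 0.110 to 1.26 in total RNA, 11.4-fold (9.71 to 13.6). All 4 intervals lay well above 2-fold.

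*MSC1*, a gene of unclear function named for a role in meiotic recombination, went from 0.0443 to 0.211 in NRO and from 0.0326 to 0.525 in total RNA, ratios of 4.77 (3.77 to 6.02) and 16.1 (12.0 to 22.2). Its total RNA ratio was the largest of all members that passed, and the 2 intervals do not overlap. *PRB1* went from 0.773 to 2.55 in NRO (3.30-fold, 3.13 to 3.48) and from 0.229 to 0.963 in total RNA (4.21-fold, 3.78 to 4.69). *SRL3*, a relative of the cell cycle repressor Whi5, went from 0.0514 to 0.210 in NRO (4.07-fold, 2.82 to 5.73) and from 0.0131 to 0.0714 in total RNA (5.45-fold, 2.46 to 13.7). *GDB1*, the glycogen debranching enzyme, went from 0.0157 to 0.0377 and from 0.0180 to 0.0846, ratios of 2.41 and 4.69. *GUD1*, a guanine deaminase, went from 0.0183 to 0.0762 and from 0.0244 to 0.0557, ratios of 4.15 and 2.28.

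Other members rose at least 2-fold in NRO and not in total RNA. *CAB4*, of coenzyme A synthesis, rose 3.48-fold in NRO (2.36 to 5.12) with a total RNA ratio of 1.15 (0.796 to 1.62). *CDC26*, of the anaphase-promoting complex, rose 3.45-fold (2.23 to 5.21) with a total RNA ratio of 0.872 (0.531 to 1.36). *BNA6*, of NAD synthesis, rose 2.50-fold (1.55 to 3.95) with a ratio of 1.71 (1.23 to 2.35). Whether the NRO and total RNA changes of a gene differ was read from the intervals alone, which do not overlap for *CAB4* and *CDC26* and do for *BNA6*.

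**Figure D2:**
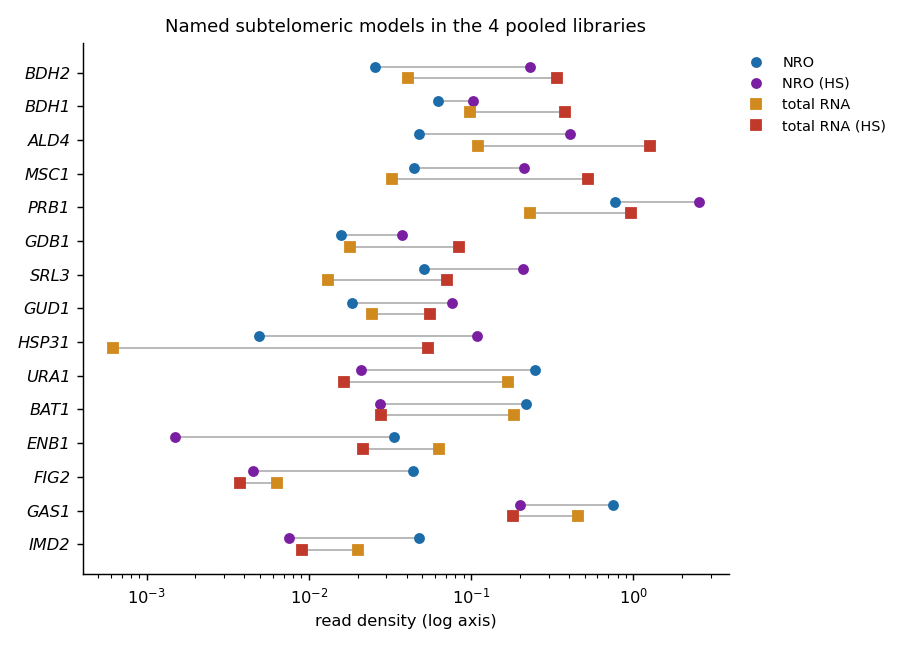
Read density (x axis, log scale) of 15 subtelomeric models (y axis) in the 4 pooled libraries; circles are NRO, squares are total RNA, a grey line joins log growth and heat shock, and each point is 1 pooled value without an error bar. *BDH2* to *HSP31* lie higher after heat shock in both kinds of library, and *URA1* to *IMD2* lie lower in both.

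The largest falls in NRO exceeded the largest rises. *URA1*, dihydroorotate dehydrogenase of uracil synthesis, went from 0.247 to 0.0208 in NRO, a ratio of 0.0843 (0.0362 to 0.167), and from 0.168 to 0.0165 in total RNA, a ratio of 0.0981 (0.0479 to 0.180). *BAT1*, the mitochondrial branched-chain transaminase, went from 0.218 to 0.0273 and from 0.183 to 0.0277, ratios of 0.126 (0.0645 to 0.221) and 0.151 (0.0911 to 0.237). *ENB1*, a transporter of the siderophore enterobactin, had 148 NRO reads and 1 NRO (HS) read, a ratio of 0.0445 (0.00112 to 0.252), and a total RNA ratio of 0.337 (0.208 to 0.526). *FIG2*, an adhesin induced by mating pheromone, went from 0.0438 to 0.00454 in NRO, a ratio of 0.104 (0.0471 to 0.198), with a total RNA ratio of 0.590 (0.283 to 1.17).

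*IMD2*, an IMP dehydrogenase of guanine nucleotide synthesis, had NRO ratio 0.158 (0.0425 to 0.411) and total RNA ratio 0.450 (0.170 to 0.997), with 80.3% of its bases mappable. *PTR2*, a peptide transporter, had NRO ratio 0.184 (0.0979 to 0.320) and total RNA ratio 0.692 (0.458 to 1.05). *SST2*, which turns off the pheromone signal, had 87 NRO reads and 2 NRO (HS) reads, a ratio of 0.151 (0.0180 to 0.564). The members *SEA4*, *URC2*, *MNT2* and *OSW7* passed the filter with 106, 115, 117 and 96 NRO reads and are listed at 0 in NRO (HS). They count among the 39 falls, as 4 of them, and given the excess of values at 0 no fold is given.

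In total RNA, 169 members passed. Heat shock raised 15 of them at least 2-fold (8.88%, background 7.85%) and lowered 34 (20.1%, background 25.3%), with a median log2 change of -0.36 against -0.38 in the others. The median of all nuclear models that passed was -0.37 in total RNA and -0.23 in NRO. With the ratios centred on this median, 26 members rose (15.4%, others 13.4%) and 20 fell (11.8%, others 16.1%) in total RNA. In NRO, 23 rose (14.8%, others 15.4%) and 35 fell (22.6%, others 19.0%).

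Other members rose at least 2-fold in total RNA and not in NRO. *ERO1*, which forms disulfide bonds in the endoplasmic reticulum, went from 0.0158 to 0.0878 in total RNA (5.57-fold, 3.50 to 9.20) and from 0.0655 to 0.0584 in NRO (0.891, 0.611 to 1.27). *BDH1* rose 3.81-fold in total RNA (3.04 to 4.84), from 0.0990 to 0.377, and its NRO ratio was 1.65 (1.17 to 2.31). *GDH3*, a glutamate dehydrogenase next to *BDH2*, rose 2.63-fold in total RNA (1.56 to 4.47) while its NRO ratio was 0.620 (0.390 to 0.943). The 3 adjacent genes *GDH3*, *BDH2* and *BDH1* on the left arm of chromosome I thus all rose in total RNA, and their NRO ratios differed. *SRY1*, which breaks down hydroxyaspartate, rose 2.81-fold in total RNA (1.47 to 5.61), and its NRO value did not pass the filter.

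Several members fell in total RNA without a fall in NRO. *RPS4A*, a ribosomal protein of the small subunit with 75.6% mappable bases, went from 0.312 to 0.0513 in total RNA, a ratio of 0.165 (0.102 to 0.266), and its NRO ratio was 0.960 (0.646 to 1.36). *PMT4*, a protein mannosyltransferase, had ratios of 0.185 (0.108 to 0.2996) and 1.05 (0.724 to 1.45) in total RNA and NRO. *PXR1*, a nucleolar protein of rRNA maturation that also inhibits telomerase, had ratios of 0.1997 (0.136 to 0.285) and 0.982 (0.748 to 1.27). For these 3 genes the total RNA and NRO intervals do not overlap.

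*SAM4*, which recycles S-adenosylmethionine, had a total RNA ratio of 0.146 (0.0514 to 0.338) and an NRO ratio of 1.27 (0.694 to 2.19). *AIM6* had 28 total RNA reads in log growth and 2 after heat shock, a ratio of 0.0973 (0.0112 to 0.386). *DIM1*, the rRNA dimethylase, had ratio 0.201 (0.0496 to 0.556), *BIO2*, biotin synthase, 0.215 (0.0743 to 0.513), and *MLP1*, of the nuclear pore basket, 0.202 (0.118 to 0.329). *MLP1* also fell in NRO, at 0.329 (0.168 to 0.586).

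Over the 141 members that passed in both kinds of library and were above 0, 7 rose in both (4.96%, others 3.70%) and 12 fell in both (8.51%, others 10.3%). No member was called in opposite directions, against 15 of 1920 other models. The 7 that rose were *ALD4*, *BDH2*, *GDB1*, *GUD1*, *MSC1*, *PRB1* and *SRL3*. The 12 that fell were *BAT1*, *CDC39*, *ENB1*, *GAS1*, *HXK2*, *IMD2*, *MLP1*, *MRC1*, *SAC1*, *SRO77*, *UPA2* and *URA1*, of which *HXK2*, *MRC1*, *SAC1*, *SRO77* and *UPA2* lie outside the naming rule and were named after their values were seen. *HXK2*, the main hexokinase in glucose, went from 0.348 to 0.134 in NRO and from 0.435 to 0.143 in total RNA. The sign was the same in 63.1% of the 141 members and in 69.0% of 1920 other models, and Pearson r of the log2 changes was 0.54 and 0.53, across genes of the same pooled cultures, which are not independent replicates.

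**Figure D3:**
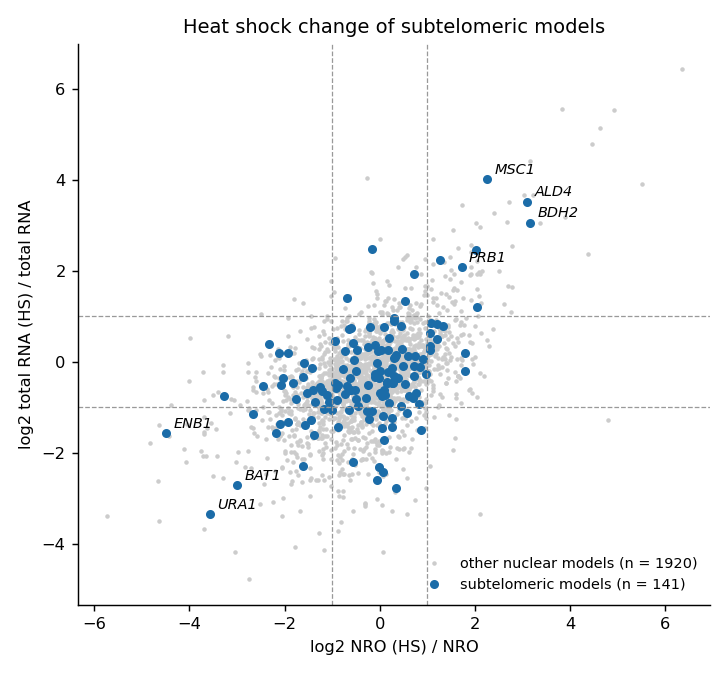
Log2 change after heat shock in NRO (x axis) and in total RNA (y axis) for 141 subtelomeric models (blue) and 1920 other nuclear models (grey), 1 point per model above 0 in all 4 libraries that passed the read limit in both; dashed lines mark 2-fold. The blue points lie within the grey cloud, with *MSC1*, *ALD4* and *BDH2* at the upper right and *URA1*, *BAT1* and *ENB1* at the lower left.

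The ratio of NRO to total RNA sets nascent transcription against RNA abundance. In log growth 190 members passed, with a median log2 ratio of 0.17 against 0.06 in the others. It was at least 2-fold high in 52 members (27.4%, background 22.1%) and at least 2-fold low in 26 (13.7%, background 15.2%). By the rule, the ratio was higher within 20 kb than farther in, with a median log2 ratio of 0.67 within 10 kb (n = 22), 0.50 from 10 to 20 kb (n = 42), 0.03 from 20 to 30 kb (n = 57) and -0.01 from 30 to 40 kb (n = 69). Among models with at least 90% mappable bases it was 0.27 within 10 kb (n = 20), below the 0.50 from 10 to 20 kb. In R64 there was no such step at 20 kb. There the median was 1.04 within 10 kb (n = 6), 0.52 from 10 to 20 kb (n = 25), 0.36 from 20 to 30 kb (n = 46) and 0.28 from 30 to 40 kb (n = 68). With at least 10 reads asked for in both libraries, the median was -0.09 in the members and in the others alike. After heat shock 136 members passed, 26 with a high ratio (19.1%, background 18.2%) and 13 with a low one (9.56%, background 10.6%).

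The 5 highest ratios in log growth belonged to members with 1 to 9 total RNA reads. *ARN1*, a siderophore transporter, had 75 reads in NRO and 1 read in total RNA, a ratio of 26.9 (4.69 to 1077). *URC2*, a putative zinc cluster protein, had 115 and 4, a ratio of 10.3 (3.92 to 38.5). *MAL31*, maltose permease, had 84 and 3 reads, a ratio of 10.1 (3.32 to 49.7), and *SEA4*, of the Seh1-associated complex, 106 and 4.03 reads, a ratio of 9.45 (3.61 to 35.6). *DIA1* had a ratio of 7.30 (3.76 to 16.2) on 183 and 9 reads. All 5 intervals are wide because of the total RNA library and leave out 2-fold.

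At the low end, *SMX3*, of the spliceosome, had 9.75 NRO and 46.6 total RNA reads in a short region, a ratio of 0.0751 (0.0344 to 0.153). *SKG1* had a ratio of 0.166 (0.109 to 0.248), and *FPR4*, a prolyl isomerase of chromatin, 0.185 (0.161 to 0.212) on 316 NRO and 613 total RNA reads. *AIM6* was at 0.205 (0.104 to 0.392) and *RTT102*, of the SWI/SNF and RSC complexes, at 0.207 (0.128 to 0.331).

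After heat shock the highest ratios were those of *PHO89*, the sodium-coupled phosphate transporter, at 8.25 (4.77 to 15.1), *GPB2* at 6.94 (2.77 to 20.8), *UPA1* at 4.45 (2.01 to 10.1), *PMT4* at 3.68 (2.07 to 6.68) and *RMD8* at 3.67 (2.15 to 6.70). *PHO89* and *UPA1* were also high in log growth, at 4.96 (3.43 to 7.45) and 6.74 (3.98 to 12.1), while *PMT4* was at 0.650 (0.528 to 0.806). The lowest were *PRD1*, a metalloendopeptidase, at 0.2003 (0.125 to 0.306), *PXL1*, of polarized growth, at 0.218 (0.0834 to 0.477), *SKG1* at 0.231 (0.0592 to 0.657), *BDH1* at 0.274 (0.195 to 0.375) and YBR287W at 0.310 (0.0935 to 0.813).

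Among the typical subtelomeric families, metal uptake is best represented. Of 18 listed genes for iron, zinc and copper uptake, 12 have a model and 11 are members. In NRO, 5 passed, 3 fell and 0 rose, beside a background of 24.6% for falls. *ENB1* is given above, *ZRT1*, the high-affinity zinc transporter, went from 0.0554 to 0.0149 (ratio 0.269, 0.0971 to 0.599), and *FRE6*, a vacuolar ferric reductase, from 0.0214 to 0.00608 (0.284, 0.0905 to 0.682). In total RNA 3 passed and 1, *ENB1*, fell, beside a background of 25.3%. *FIT3*, a mannoprotein that holds siderophores in the cell wall, was by far the most highly read of the list at 0.347, 0.301, 0.400 and 0.428 in the 2 log growth libraries (NRO, total RNA) and the 2 heat shock libraries (NRO, total RNA). Its neighbour *FIT2* was at 0.0161, 0.0112, 0.0399 and 0.0536 and did not pass.

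The other genes on this list gave no heat shock call. *SIT1* had 47.6 NRO reads and 0.111 NRO (HS) reads and did not pass. *ARN1* passed, with 75 and 14 reads and an NRO ratio of 1.23 (0.641 to 2.19). *FRE2*, *FRE3*, *FRE4* and *ZPS1* each held under 10 reads in every library. In log growth 6 of the list passed for the ratio of NRO to total RNA and 3 were at least 2-fold high, *ARN1*, *ZRT1* and *FRE6*, beside a background of 22.1%. *FET4*, a low-affinity iron transporter that is not on the list and lies near the end of the right arm of chromosome XIII, had 407 reads in NRO and 22 in total RNA, an NRO to total RNA ratio of 6.64 (4.33 to 10.7). After heat shock it had 18 NRO (HS) reads and is listed at 0 in total RNA (HS). In read density its NRO change was a log2 of -1.78, which is a called fall.

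Of 28 listed sugar genes, 6 have a model, and each of these is a member. Their median NRO density was 0.00167 against 0.0157 over all members, with *SUC2* and *MAL31* above that of all members and the other 4 below it. *SUC2*, the invertase that glucose represses, was at 0.0201, 0.00753, 0.0356 and 0.00186 in the 2 log growth libraries (NRO, total RNA) and the 2 heat shock libraries (NRO, total RNA), with an NRO change of 1.77-fold (1.05 to 2.86). *MAL31* was at 0.0180, 0.00179 and 0.0156 in NRO, total RNA and NRO (HS) and is listed at 0 in total RNA (HS). *MAL13*, a maltose activator, held 10.3 NRO reads. *IMA5*, an isomaltase, held 2 NRO reads, and *MAL33* and the hexose transporter *HXT14* are listed at 0 in all 4 libraries.

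Phosphate genes split by mappability. *PHO84* and *PHO89*, both fully mappable, passed in every comparison. *PHO84* was at 0.619, 0.362, 0.431 and 0.236 and *PHO89* at 0.0922, 0.0186, 0.111 and 0.0135 in the same order of libraries. Neither changed 2-fold after heat shock in NRO or total RNA. The acid phosphatase genes *PHO11* and *PHO12* have 23.0% and 25.3% mappable bases, being near-identical to each other. *PHO11* is listed at 0 throughout and *PHO12* is above 0 in total RNA only, at 0.00672, which with so few mappable bases does not show that they are off.

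The remaining families have 1 or 2 members with a model each. *HSP31*, a glyoxalase and chaperone of the DJ-1 family, had 7.61 NRO reads and 25.4 NRO (HS) reads, a ratio of 22.0 (8.998 to 52.8), and 0.342 total RNA reads and 22 after heat shock. It did not pass the limit of 10 expected reads in either comparison, so neither rise counts as a call. The flocculin *FLO10* held 49 reads in NRO and 15 in NRO (HS), with 9 in total RNA before and 1 after heat shock. *AAD10* and *AAD14*, aryl-alcohol dehydrogenases, held 19 and 31 NRO reads, and *COS9*, a membrane protein of the COS family, held 7. *HMRA1*, the a1 gene of the silent *HMR* cassette, is fully mappable by the authors' measure and is listed at 0 in all 4 libraries. In an α strain this is its only copy. No gene of the seripauperin, DUP240, vitamin or Y′ helicase lists is a member.

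**Figure D4:**
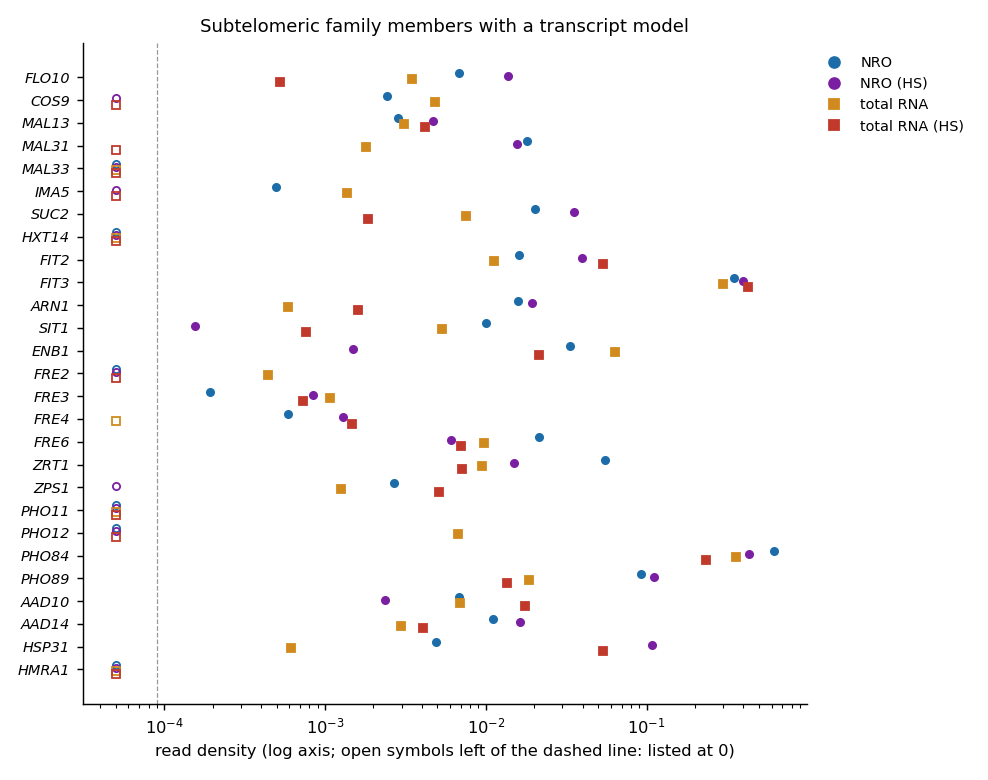
Read density (x axis, log scale) of the 27 subtelomeric models on the family lists (y axis) in the 4 pooled libraries; circles are NRO and squares total RNA, and open symbols left of the dashed line are models listed at 0. *PHO84* and *FIT3* lie highest, and *MAL33*, *HXT14*, *PHO11* and *HMRA1* are open in all 4 libraries.

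The genes of 3 factors on the silencing list, *TUP1*, *SIR3* and the deacetylase gene *RPD3*, are members by the rule. *TUP1* and *SIR3* lie on right arms, where the rule counts from the last model. In R64, *TUP1* is 54168 bases from the chromosome end and so outside the outer 40 kb. *TUP1* was at 0.439, 0.703, 0.412 and 0.553 in the 2 log growth libraries (NRO, total RNA) and the 2 heat shock libraries (NRO, total RNA), and did not change 2-fold. *RPD3* was at 0.0698, 0.0712, 0.0623 and 0.0333, with a total RNA ratio of 0.468 (0.286 to 0.736), which is a fall, and an NRO ratio of 0.892 (0.578 to 1.33). *SIR3* was low at 0.00238, 0.00935, 0.000921 and 0.0122. Its NRO to total RNA ratio in log growth was 0.254 (0.128 to 0.494), and its total RNA ratio after heat shock 1.31 (0.704 to 2.41). Over all positions, 17 of the 24 factors on this list have a model. In NRO 11 passed, 3 fell (*SIR4*, *ORC1* and *SUM1*, background 24.6%) and 0 rose (background 10.8%), with a median log2 change of -0.51 beside -0.23 over all nuclear models. In total RNA 12 passed, 2 fell (*RPD3* and *REB1*, background 25.3%) and 0 rose (background 7.85%), with a median of -0.61 beside -0.37.

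Among the models nearest the ends by the rule, several were read well. In R64 only 13 models lie within 10 kb of an end, so most of these are farther in. Of the 53 models within 10 kb by the rule, 29 had at least 10 reads in some library and 10 were at 0 in all 4. The last model of the right arm is at 0 in all 4 libraries on 4 of 16 chromosomes and held at least 10 NRO reads on 8. *RET2*, a coatomer subunit, was at 0.2495, 0.256, 0.298 and 0.185 in the 2 log growth libraries (NRO, total RNA) and the 2 heat shock libraries (NRO, total RNA). *ADH6*, an NADPH alcohol dehydrogenase, was at 0.154, 0.151, 0.201 and 0.117, and *PRE4*, of the proteasome, at 0.134, 0.143, 0.160 and 0.0606. *PRE4* fell in total RNA, at a ratio of 0.424 (0.270 to 0.640), with an NRO ratio of 1.19 (0.852 to 1.64). These are housekeeping genes that lie near the last model of their arm, *ADH6* at 12.3 kb and *RET2* at 18.4 kb from the end in R64.

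*CDC39*, the scaffold of the CCR4-NOT complex, fell in both kinds of library, with ratios of 0.221 (0.159 to 0.299) in NRO and 0.337 (0.243 to 0.460) in total RNA. *PCA1*, a cadmium exporter, fell in NRO at 0.236 (0.0752 to 0.562), and the uncharacterized YMR316C-B at 0.261 (0.0834 to 0.626). *DIA1* fell in NRO at 0.396 (0.194 to 0.725). *FDC1*, a decarboxylase, and *BDS1*, a sulfatase, changed less than 2-fold where they passed. Of the rest within 10 kb by the rule, *MIX23*, *FMP10*, *YPS6*, YIR042C, *DAL5*, *FMP27*, *AIF1* and *ARR1* held between 6 and 59.6 NRO reads, and their NRO changes did not pass the filter. In *ARR1*, the arsenic response activator, 47 NRO reads stood against a value of 0 in NRO (HS).

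The models at the limit of the rule are too few and too varied to show whether density stepped there. The bins on either side had NRO medians of 0.0191 (30 to 40 kb, n = 105) and 0.0320 (40 to 100 kb, n = 699). The 3 models just inside, *CCA1*, *SAF1* and *PRB1*, had NRO densities of 0.0216, 0.0231 and 0.773, and the 3 just outside, *PTC6*, *MNT4* and *VAN1*, had 0.0639, 0.00218 and 0.133. *PRB1*, 1 of the strongest heat shock genes among the members, lies 160 bases inside the limit.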

How the data were processed

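Biotin-selected nascent RNA and total RNA of BY4742 cultures were measured by strand-specific sequencing. The authors aligned reads with Maq to sacCer2, kept alignments with a mapping quality of at least 30, removed rDNA and merged the 3 replicates of each group. Per transcript model the authors deposited coverage (a signal): a depth summed over the region and a read density, each normalised to the sequenced bases of the library. They also give the number of total, mappable and scored bases of each model. Reads were estimated as depth over read length, 36 bases, or 38 in total RNA, which made 81.4%, 79.1%, 85.0% and 82.7% of low depths whole in the NRO, total RNA and both heat shock libraries in turn. The paper states 36 bases for all reads, and the total RNA read number estimated here is lower than its count. PCR duplicates are not independent molecules, so that intervals cover counting error only.

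Log2 ratios were read per model where at least 10 reads were expected in the shallower library, a value of 0 was set to 3 reads, and 2-fold was called. Intervals are exact binomial at 95%. In text, a ratio is that of the deposited densities. All models were used and the members then read out. The steps were tested on simulated data. The members, lists and limits were chosen with earlier results of these data known. Named genes were the family and silencing genes with at least 10 reads, the 10 highest densities, the 10 largest rises and falls, the 5 highest and lowest ratios, the models within 10 kb with at least 10 reads, and those at the limit of the rule. Promoters, names and products came from RefSeq R64, in which 317 of 319 members were found. Models in sacCer2 were matched to R64 by systematic gene name, for the promoter windows and for the second distance scale. A total of 20 other depth and density columns, 5 in each table, was not used, and the 3′ NRO library was not analysed here. Alternatives covered mappability, distance limits, region length, filters, pseudocount, fold limit and centring. Computations used Python (3.11.15) with scipy (1.17.1), pandas (2.3.3) and numpy (2.4.6), and plots used matplotlib (3.10.9).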

Additional observations from a re-analysis of the deposited data

How the results depend on the processing

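No paired analysis was possible because each group is 1 pooled value, so no replicate could be left out either. Of 208 alternative values, 164 stayed within the counting or order interval of the reported value. The shares at 0, with models under 10 reads counted as unread, were 31.0% in NRO, 43.3% in total RNA, 55.2% in NRO (HS) and 48.3% in total RNA (HS). Medians without models at 0 were 0.0244, 0.0196, 0.0333 and 0.0189. With a 20 kb limit, the shares at 0 were 18.5% in total RNA, 37.1% in NRO (HS) and 29.0% in total RNA (HS), and the medians 0.00802, 0.00784 and 0.00692. Regions of at least 500 bases gave 17.9% at 0 in total RNA (HS).

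For NRO after heat shock, 17.8% of members rose with no filter, 17.1% rose and 14.3% fell with at least 10 reads in both libraries (median log2 0.12), and 6.15% rose with at least 50 expected reads. The 1.5-fold limit gave 20% higher and 38.1% lower, and centring gave a median of 0.14. For total RNA, the pseudocount gave 14.2% lower, the 1.5-fold limit 16.6% higher and 39.6% lower, and centring 15.4% higher, 11.8% lower and a median of 0.013. For the NRO to total RNA ratio in log growth, the 20 kb limit gave a median of 0.51 and 7.81% low ratios, no filter 19.4% low, and at least 10 reads in both libraries a median of -0.089 and 20% high. The pseudocount gave 16.3% high, and the 1.5-fold limit 40% high and 27.9% low. After heat shock, at least 50 expected reads gave a median of -0.093 and 9.09% high, the pseudocount 13.2% high, and the 1.5-fold limit 39.7% high and 22.1% low. Among settings added after the data had been seen, the median NRO density from 10 to 20 kb was 0.00720 by R64 distance, and from 20 to 30 kb it was 0.0102 on left arms alone. Leaving out models at 0 in 1 library changed no such value beyond its interval. The cause of these shifts was not tested beyond the settings themselves.

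Of 276 heat shock ratios of single named genes under the pseudocount and centring, 229 stayed within the counting interval, 47 moved outside it, and 0 of those called reversed. The depth of the NRO (HS) library, with a median of 7.42 reads per member, limits the heat shock results. Pooled values leave the error between cultures unknown, and the right arms are measured from the last model.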
